A study of Mus musculus with 14 samples.

Results

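The genes described are the cytosolic ribosomal protein genes of the mouse, which encode the protein part of the ribosomes outside mitochondria. They were chosen by name. A gene belonged to the set when its platform symbol was Rpl or Rps followed by a number, then at most 1 of the letters a, x, l and y and any further number, or was Rplp0, Rplp1, Rplp2 or Rpsa, and when it had a value on at least 10 of the 14 arrays. Ribosomal S6 kinases and mitochondrial ribosomal proteins were left out. Of 60 symbols that matched, 59 entered, among 9290 genes tested. The other one, Rpl26, had values on 8 arrays, between -0.69 and 1.42, 5 of them above 0, and was not tested. The 59 genes were read by 91 probes, and 35 of them by a single probe. Of the 59, 36 encode proteins of the large (60S) subunit and 23 encode proteins of the small (40S) subunit.

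RNA of fibroblasts without Ptdsr (current symbol Jmjd6), labelled Ptdsr-/-, was hybridised on each of 14 arrays together with RNA of fibroblasts labelled wt. The 2 RNAs carried different dyes. The knockout RNA was in Cy5 on replicates 1, 3, 4, 7, 8, 9 and 13 and in Cy3 on replicates 2, 5, 6, 10, 11, 12 and 14. The series design speaks of 2 fibroblast cultures, which no label ties to an array, so p-values measured the spread between arrays, which may be technical. No label gives the age of the animals, the passage of the cells or the allele.

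Each value is a log2 ratio of knockout over wild type after each array was centred on its median. This direction is likely and is not stated. It rests on the coded extremes of the deposited values, which were all positive on the 7 arrays with the knockout in Cy5 and all negative on the other 7. Between 13165 and 19615 of 20355 probes had a ratio on an array, and the ratios carry neither a spot intensity nor a level. In bulk RNA, fewer cells of a type and less RNA per cell cannot be told apart. The targeted gene Jmjd6, by the mean of its 2 probes, had a median log2 ratio of -0.32, with a lowest value of -1.34 and a highest of 2.92. It lay below 0 on 12 of 14 arrays and did not pass the test (mean -0.25 ± 1.04, SD, n = 14; limma adjusted p = 0.934). Of the 15 listed fibroblast markers, 13 had enough values to be tested.

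Each ribosome holds a copy of nearly every ribosomal protein, and the genes of these proteins are among the most strongly expressed of a growing cell. Their messengers begin with a tract of pyrimidines, the TOP motif, through which mTOR signalling controls their translation, and unassembled proteins are degraded. Some ribosomal proteins act outside the ribosome as well, such as Rpl5 and Rpl11, which bind the p53 regulator Mdm2 when ribosome assembly is disturbed. JmjC-domain oxygenases, the protein family of Jmjd6, include enzymes that hydroxylate ribosomal proteins.

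None of the 59 genes rose or fell at an adjusted p below 0.05. Across all genes tested, 0.0861% were called, all of them lower. The median of the genes' mean log2 ratios was 0.12, against 0.00 over all genes tested, and 42 of the 59 means lay above 0. With arrays centred on all probes, the excess lay on 3 arrays. On replicates 7, 8 and 9, all with the knockout in Cy5, the median over the genes was 0.69, 0.47 and 0.47. Without those arrays the median of the genes' means was -0.00, with 29 means above 0. With arrays centred on well measured probes instead, the medians over the genes were 0.20 to 0.45 on replicates 7 to 12, which hold both dye orientations. On that scale, however, all genes had medians of 0.09, 0.31 and 0.33 on replicates 10, 11 and 12. On replicates 7, 8 and 9 those medians were -0.25, -0.15 and -0.11. The genes varied together from array to array, with a median correlation of 0.27 between pairs against 0.01 for all genes, and both subunits shared this pattern. The ratios nearest to a change were lower ones, of Rpl10a, a protein of the mobile L1 stalk, and of Rps16 and Rps12, both in the head of the small subunit. The single probe of Rpl10a was not a well measured one.

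The promoter sequences of 5 genes are shown as examples of those results. Rpl19 (60S, at a bridge between the subunits), Rpl27 (60S) and Rps7 (40S, also an Mdm2-binding protein) followed the other genes closely over the arrays, and Rpl10a and Rps16 had the smallest p-values of the set. Each sequence is the 250 bases before the transcription start, 5′ to 3′ on the strand of the gene, from RefSeq on GRCm38.p6. Where RefSeq lists several starts, the first was taken. The positions are chr11:98026460-98026709 (plus strand) for Rpl19, chr11:101441995-101442244 (plus strand) for Rpl27, chr12:28635954-28636203 (minus strand) for Rps7, chr17:28328221-28328470 (plus strand) for Rpl10a and chr7:28350439-28350688 (plus strand) for Rps16. Capitals mark a match to the ETS motif CCGGAAG or its reverse complement CTTCCGG.
Rpl19: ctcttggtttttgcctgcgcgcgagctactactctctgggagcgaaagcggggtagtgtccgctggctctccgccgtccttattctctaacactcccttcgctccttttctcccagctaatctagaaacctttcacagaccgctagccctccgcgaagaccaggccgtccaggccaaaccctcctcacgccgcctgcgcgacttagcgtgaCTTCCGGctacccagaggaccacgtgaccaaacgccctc
Rpl27: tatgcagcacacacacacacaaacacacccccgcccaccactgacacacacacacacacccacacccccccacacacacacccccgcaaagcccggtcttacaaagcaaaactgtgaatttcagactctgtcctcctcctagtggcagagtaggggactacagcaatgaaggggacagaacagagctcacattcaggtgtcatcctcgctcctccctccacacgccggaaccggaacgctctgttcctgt
Rps7: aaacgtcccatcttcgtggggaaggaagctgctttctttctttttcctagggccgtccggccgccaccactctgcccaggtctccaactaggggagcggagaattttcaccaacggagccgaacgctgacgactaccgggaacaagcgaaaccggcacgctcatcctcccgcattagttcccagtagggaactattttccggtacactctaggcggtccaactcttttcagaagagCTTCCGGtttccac
Rpl10a: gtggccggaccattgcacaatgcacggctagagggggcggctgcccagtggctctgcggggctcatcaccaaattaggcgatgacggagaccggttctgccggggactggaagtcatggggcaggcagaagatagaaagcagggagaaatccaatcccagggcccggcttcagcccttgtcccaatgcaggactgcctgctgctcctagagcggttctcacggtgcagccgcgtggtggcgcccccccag
Rps16: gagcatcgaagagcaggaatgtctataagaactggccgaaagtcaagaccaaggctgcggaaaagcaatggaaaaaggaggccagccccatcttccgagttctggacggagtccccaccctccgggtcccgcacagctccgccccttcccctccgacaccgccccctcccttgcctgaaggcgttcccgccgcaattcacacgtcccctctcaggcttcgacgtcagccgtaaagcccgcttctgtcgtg
The match began 39 bases before the start in Rpl19 and 14 bases before it in Rps7, on the antisense strand in both. Those letters were not in the other 3 sequences.

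RefSeq windows of 300 bases (250 before the start and 50 after it) were found for 50 of the 59 genes, 59 windows in all. The ETS motif, the letters bound by ETS-family factors such as GABP, was in 23 of the 59 windows, or 39.0%, against 8.86% of 32851 windows of all genes on both strands. The YY1 motif AAGATGGC, searched on both strands, was in 5 windows (8.47%), against 2.75% of all windows. A TATA box, TATAAA on the sense strand, was in 5 windows (8.47%), against 8.32%. The pyrimidine run CTCTTTC on the sense strand, letters of the kind found in TOP messengers, was in 8 windows (13.6%), against 3.99%. Of each window, 250 bases lie before the start, outside the messenger. Matches in the 50 bases after it were not counted apart. Over the 250 bases before the start alone, the median GC content was 58% for the ribosomal protein windows and 52.4% for all windows. A match is a description of the sequence and not a bound site.

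Array by array, the genes lay close to 0 on most arrays. On replicates 1 to 6 the median over the genes was -0.01, 0.29, -0.07, -0.14, -0.05 and 0.04. On replicates 7 to 12 it was 0.69, 0.47, 0.47, 0.11, 0.08 and 0.07, and on replicates 13 and 14 it was -0.13 and -0.16. Replicates 7, 8 and 9 thus stood above the other 11 arrays, of which replicate 2 was the highest. On these 3 arrays, 44 of 59, 47 of 59 and 49 of 57 genes lay above 0. On the other 11 arrays the number above 0 ran from 16 of 58 (replicate 4) to 40 of 54 (replicate 2). The subunits did not part on replicates 7, 8 and 9. The median of the 60S genes there was 0.70, 0.49 and 0.47, and that of the 40S genes was 0.62, 0.47 and 0.46.

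**Figure D1:**
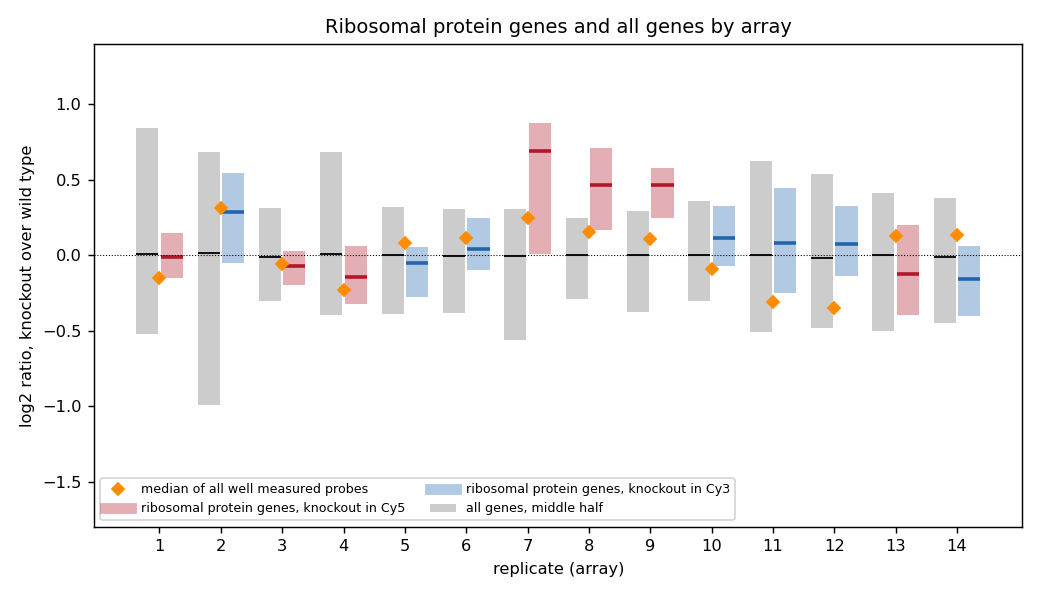
Log2 ratios of the ribosomal protein genes (coloured boxes, red with the knockout in Cy5 and blue with the knockout in Cy3) and of all genes (grey boxes) on each of the 14 arrays. Boxes span the middle 50% of genes, lines are medians, and diamonds are medians of all well measured probes. The ribosomal protein medians of 0.69, 0.47 and 0.47 on replicates 7, 8 and 9 are the highest of the 14.

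The arrays also differed in where their well measured probes stood, and this moved with the result. Well measured probes were taken as the 3507 of 20355 that had a value on all 14 arrays and a ratio of small whole numbers, a sign of a dim spot, on at most 1. After median centring, the medians of these probes ran from -0.35 (replicate 12) to 0.32 (replicate 2), and they were 0.25, 0.16 and 0.11 on replicates 7, 8 and 9. Of the ribosomal protein probes, 46 were well measured. They lay above 0 in 45, 44 and 45 of 46 cases on replicates 7, 8 and 9, with medians of 0.81, 0.70 and 0.52. Their median minus that of all well measured probes was 0.57, 0.55 and 0.41 on these arrays, and 0.18, 0.39 and 0.39 on replicates 10, 11 and 12. It was -0.30 and -0.21 on replicates 13 and 14 and between -0.09 and 0.16 on replicates 1 to 6. The well measured ribosomal protein probes were thus above the other well measured probes on replicates 7 to 12 and below them on 13 and 14. When each array was centred on the well measured probes instead, the medians over the ribosomal protein genes were 0.45, 0.31 and 0.36 on replicates 7, 8 and 9 and 0.20, 0.39 and 0.42 on replicates 10, 11 and 12. They lay between -0.13 and 0.14 on replicates 1 to 6 and at -0.25 and -0.29 on replicates 13 and 14. On that scale replicates 7 to 12, which hold both dye orientations, were the 6 highest arrays. On replicates 11 and 12, however, all genes had medians of 0.31 and 0.33 on the same scale, against -0.25, -0.15 and -0.11 on replicates 7, 8 and 9. The ranges 1 to 6, 7 to 12 and 13 to 14 are no labelled groups.

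The test of each gene asked whether its mean log2 ratio over the arrays differed from 0. At an unadjusted p below 0.05, 5 of the 59 genes were higher and 3 were lower, while 2.4% of all genes tested were higher and 2.95% lower. The smallest adjusted p was 0.420. For the dye term, which compares arrays with the knockout in Cy5 and in Cy3, no gene was called, against 0.0431% of all genes. At an unadjusted p below 0.05, 2 genes, Rpl10a and Rpl39l, were higher with the knockout in Cy5, and none was lower. Of all genes tested 2.79% were higher and 4.63% lower, or 7.42% in either direction.

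**Figure D2:**
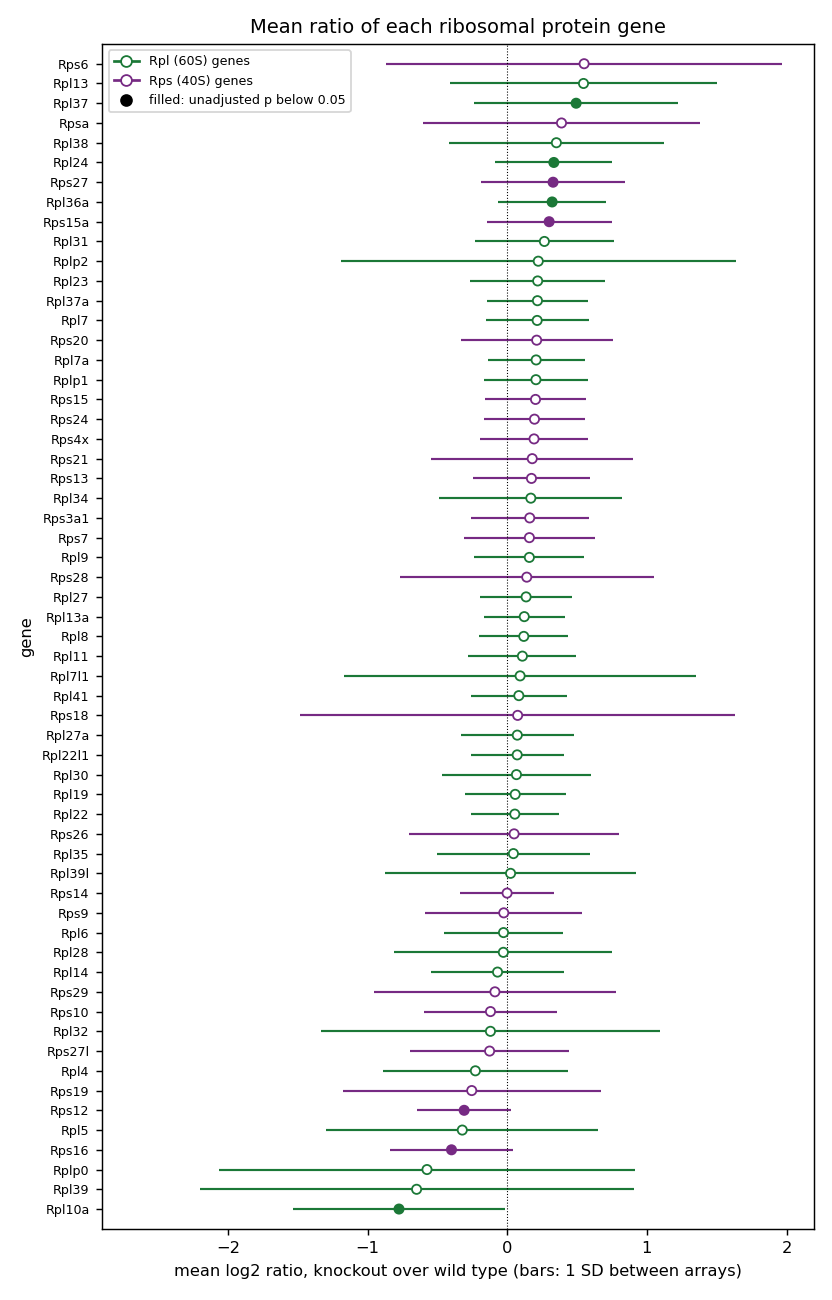
Mean log2 ratio of each of the 59 genes over the arrays, in order, with bars of 1 SD between arrays (green, 60S genes; purple, 40S genes). Filled points mark the 8 genes with an unadjusted p below 0.05, 3 at the low end and 5 at the high end, none of which passed adjustment.

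Among the 3 lower genes, Rpl10a, whose protein in the L1 stalk helps spent transfer RNA to leave, had the largest mean difference. Its ratios with the knockout in Cy5 were -0.13, -0.05, 0.48, -1.34, -0.21 and -0.65 on replicates 3, 4, 7, 8, 9 and 13. With the knockout in Cy3 they were -0.85, -0.57, -1.19, -0.82, -1.74 and -2.21 on replicates 5, 6, 10, 11, 12 and 14. It lay below 0 on 11 of 12 arrays, with replicate 7 the exception, and most of the lowest values were on the arrays with the knockout in Cy3. Its mean was -0.78 ± 0.76 (SD, n = 12), or 1.71-fold lower, with limma adjusted p = 0.420 and unadjusted p = 0.00104. No other probe read this gene, and its probe was not among the well measured ones.

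Rps16, whose tail reaches toward the transfer RNA in the P site, lay below 0 on 11 of 14 arrays. Its lowest ratio was -1.32 (replicate 12), its median -0.33 and its highest 0.27 (replicate 9), and its mean was -0.40 ± 0.44 (SD, n = 14; limma adjusted p = 0.832, unadjusted p = 0.0107). Arrays of both dye orientations were low, with means of -0.32 and -0.48 for the knockout in Cy5 and in Cy3. Rps12, at the beak of the small subunit, was below 0 on 12 of 14 arrays. It ranged from -1.03 to 0.10 with a median of -0.25 and a mean of -0.31 ± 0.33 (SD, n = 14; limma adjusted p = 0.832, unadjusted p = 0.0153). On replicates 7, 8 and 9, where most of the set was high, Rps16 was at -0.34, -0.49 and 0.27 and Rps12 at 0.10, -0.23 and -0.28. Replicate 9 held the highest value of Rps16, and replicate 7 that of Rps12. The 2 probes of Rps12 had the same mean, -0.31 and -0.29, but their values over the arrays ran against each other (r = -0.58).

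The 5 higher genes all lay above 0 on replicates 7 to 9, though Rpl37 and Rps27 had their highest values on other arrays. Rpl24, a protein at the face of the large subunit that meets the small one, ranged from -0.22 to 1.07 with a median of 0.32, and lay above 0 on 11 of 14 arrays. Its mean was 0.33 ± 0.42 (SD, n = 14; limma adjusted p = 0.903, unadjusted p = 0.0253). On replicates 7, 8 and 9 it stood at 1.07, 0.87 and 0.52, and without those arrays its mean was 0.14 (unadjusted p = 0.319 in limma). Rpl36a, a protein near the exit site of transfer RNA, ranged from -0.12 to 1.13 with a median of 0.25 and was above 0 on 11 of 14 arrays. Its mean of 0.32 ± 0.39 (SD, n = 14; limma adjusted p = 0.895) became 0.15 without replicates 7 to 9. The 3 arrays therefore supplied much of the difference of both genes.

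Rpl37, a small zinc-binding protein of the large subunit, had a median of 0.27, from -0.24 to 2.41 on replicate 11, and a mean of 0.49 ± 0.73 (SD, n = 14; limma adjusted p = 0.892). Replicate 2, at 1.24, was its next highest, so single arrays carried part of its mean. The 2 probes of Rpl37, both well measured, read 4.492 and 0.335 on replicate 11 (r = 0.37 over the arrays). Rps15a, in the body of the small subunit, had a median of 0.20, from -0.26 to 1.12, and a mean of 0.30 ± 0.45 (SD, n = 14; limma adjusted p = 0.903). Rps27, a zinc-finger protein of the platform, had a median of 0.50, from -0.59 to 1.12 on replicate 4, and a mean of 0.33 ± 0.51 (SD, n = 14; limma adjusted p = 0.903). Without replicates 7 to 9 the means of these 3 genes were 0.29, 0.09 and 0.20. In limma without those arrays, 0 genes were higher at an unadjusted p below 0.05 (3.71% of all genes were) and 2 were lower (3.1% of all genes). The 2 were Rpl10a, with a mean of -0.76 (unadjusted p = 0.00562), and Rps16, with a mean of -0.45 (unadjusted p = 0.0215).

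Several genes with large means had them from few arrays. Rps6, the protein that S6 kinases phosphorylate on growth signals, had a mean of 0.55 ± 1.42 (SD, n = 14) and a median of 0.24. Replicate 1 alone stood at 4.84, read by a single probe there, and replicate 2 at -1.56. Rpl13 had a mean of 0.55 ± 0.96 (SD, n = 12) and a median of 0.44, with replicate 6 at 3.25 and the next value at 0.76. Rpsa, a small subunit protein also known as a laminin receptor, had a mean of 0.39 ± 0.99 (SD, n = 14) against a median of 0.09, with replicate 2 at 3.21. For these genes the median was the smaller of both summaries. Rpl38, known from a mouse mutant with skeletal defects, ranged from -1.28 to 1.85 with a mean of 0.35 ± 0.77 (SD, n = 12), and Rpl31, at the rim of the exit tunnel, from -0.65 to 1.0 with a mean of 0.27 ± 0.50 (SD, n = 14).

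At the functional sites of the large subunit the genes did not move alike. The stalk that recruits the GTPase factors is built from Rplp0, Rplp1 and Rplp2. Rplp0, its anchor, ranged from -4.00 (replicate 6) to 1.66 (replicate 1), with a mean of -0.57 ± 1.49 (SD, n = 13; limma adjusted p = 0.903). Rplp1 kept within -0.30 and 0.90 and had a mean of 0.21 ± 0.38 (SD, n = 14), with replicates 7, 8 and 9 at 0.90, 0.69 and 0.60 as its highest values. Rplp2 ran from -2.36 (replicate 1) to 2.28 (replicate 2), with a mean of 0.22 ± 1.42 (SD, n = 12). Of the 3, Rplp1 alone had a small spread, and it alone had a well measured probe.

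Rpl5 and Rpl11 form a particle with the 5S RNA. Rpl11 lay between -0.57 and 0.75 with a mean of 0.11 ± 0.39 (SD, n = 14), above 0 on 7 arrays and below 0 on 7, and its 2 probes agreed closely over the arrays (r = 0.93). Rpl5 had values on 10 arrays only, from -2.46 to 1.32, with a mean of -0.32 ± 0.97 (SD, n = 10). Its value was -0.80 and -0.74 on replicates 7 and 8, where Rpl11 was 0.73 and 0.75. Rpl11 had a well measured probe and Rpl5 had none. Of the 7 tested genes known for Mdm2 binding 4 had means above 0, as did 4 of 7 genes mutated in Diamond-Blackfan anaemia. Rps19, the gene first linked to that anaemia, had a mean of -0.25 ± 0.92 (SD, n = 14), from -1.90 (replicate 3) to 2.06 (replicate 14).

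Along the peptide exit tunnel, 5 of 7 tested genes had means above 0 (median 0.05). Rpl39, which lines the tunnel, had the lowest plain average but one, -0.65 ± 1.55 (SD, n = 11). Its fitted mean, with equal weight to both dye orientations, was -0.42, and that of Rplp0 was lower at -0.62. Rpl39 had no well measured probe. It stood at -4.23 on replicate 1 and between 0.74 and 1.28 on replicates 10, 11 and 12. Rpl4, which reaches into the tunnel, had a mean of -0.23 ± 0.66 (SD, n = 14), but its 3 probes differed, with means of -0.72, -0.27 and 0.06. The well measured one had the mean of 0.06 and was at 0.76, 0.63 and 0.39 on replicates 7, 8 and 9. In the small subunit, the head and the rest differed in their counts: 4 of 9 head genes had means above 0 (median -0.09), against 11 of 13 genes of the body and platform (median 0.18). With the Cy3 arrays turned, 7 of 9 head genes (median 0.07) and 12 of 13 body and platform genes (median 0.09) lay above 0. The difference between the lists was not tested.

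Ribosomal proteins that are hydroxylated were read because of the enzyme family of the deleted gene. Rpl8, a substrate of the JmjC enzyme NO66, ranged from -0.41 to 0.71 with a mean of 0.12 ± 0.32 (SD, n = 14; limma adjusted p = 0.928). Rpl27a, a substrate of the JmjC enzyme MINA, ranged from -0.60 to 0.71 with a mean of 0.07 ± 0.41 (SD, n = 14; limma adjusted p = 0.963). Neither mean passed the test or exceeded its spread. The 3 probes of Rpl8 agreed over the arrays, with pairwise r from 0.75 to 0.85 and means of 0.10 to 0.14. Of the 6 listed hydroxylases 1 was tested, Ogfod1, with a mean of 0.20 ± 0.97 (SD, n = 14).

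Paralogues were set beside their parent genes. Rpl22 and Rpl22l1 both had means near 0, 0.05 ± 0.32 and 0.07 ± 0.33 (SD, n = 14 each). Rps27 had a mean of 0.33 ± 0.51 and Rps27l, a p53-induced paralogue, a mean of -0.13 ± 0.57 (SD, n = 14 each), with replicate 2 of Rps27l at -1.75. Rpl7 had a mean of 0.21 ± 0.37 (SD, n = 14) and Rpl7l1 a mean of 0.09 ± 1.26 (SD, n = 11). Rpl39l, best known from testis, was at 0.58 ± 1.09 with the knockout in Cy5 and -0.44 ± 0.32 in Cy3. Cross-hybridisation between near-identical copies, including processed pseudogenes, can mix such signals on cDNA arrays and was not tested. Of ribosomal proteins outside the name rule, Fau had a mean of 0.63 ± 1.28 (SD, n = 11) and Rpl36al of 0.11 ± 1.76 (SD, n = 11).

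The ribosomal protein genes varied together over the arrays. Over the 46 genes with values on all arrays there were 1035 pairs, with a median Pearson correlation of 0.27 across the 14 arrays and 72.9% of pairs above 0. Over the 4624 genes with complete values the median was 0.01 with 50.7% above 0. The arrays share the same 2 kinds of RNA, and brightness of the spots was not available, so these correlations are a description. Other genes with well measured probes were not compared apart. Without replicates 7, 8 and 9 the median over the pairs was 0.12, against 0.01 over all genes. With arrays centred on well measured probes the median was 0.24 with and 0.20 without those arrays, against 0.04 over all genes in both cases. How much of the covariation lay on replicates 7, 8 and 9 therefore depended on the centring.

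Each gene was also compared with the median of the other ribosomal protein genes. The correlation was above 0 for 45 of the 59 genes, above 0.5 for 27 and above 0.8 for 19. Of these 19, 13 belong to the 60S and 6 to the 40S subunit, and 17 had a well measured probe. Rpl19 had the highest value, 0.96, followed by Rps7 at 0.96 and Rpl13a at 0.93. Without replicates 7, 8 and 9, Rps7 still had 0.95 and Rpl19 0.87, and 21 of the 59 genes were above 0.5. The ratios of Rpl19 were 0.72, 0.67 and 0.46 on replicates 7, 8 and 9, 0.29 on replicate 2, and between -0.51 and 0.06 on the others. Its mean of 0.06 ± 0.36 (SD, n = 14) was small beside that range.

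The pair with the highest correlation was Rpl19 and Rpl27 (r = 0.97), followed by Rpl31 and Rpl37a (r = 0.96) and by Rpl23 and Rps7 (r = 0.95), a pair across the subunits. Rpl27 had a mean of 0.14 ± 0.33 (SD, n = 14), and its values on replicates 7, 8 and 9 were 0.68, 0.66 and 0.48. The lowest correlation was that of Rps27l and Rpsa (r = -0.81), whose opposite values on replicate 2, -1.75 and 3.21, were the farthest apart. Rps18 (-0.58) and Rpl32 (-0.53) had the lowest correlations with the median of the other genes. Among the 14 genes below 0 on this measure, 4 had a well measured probe. Rpl23, Rpl37a, Rps7, Rpl13a, Rps18 and Rpl32 were named after their values had been seen.

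**Figure D3:**
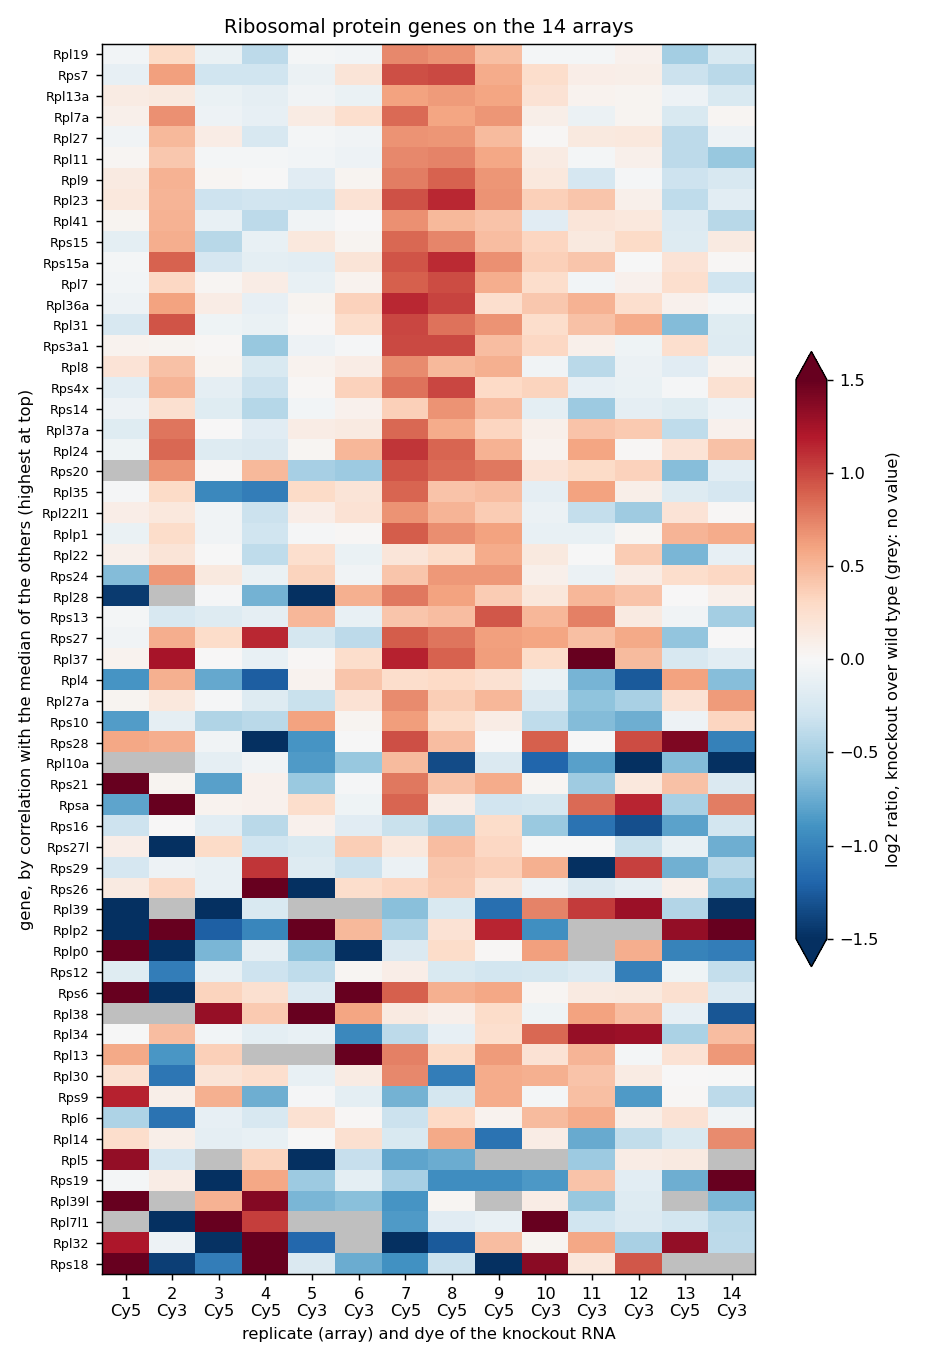
Log2 ratio of every ribosomal protein gene (top to bottom) on every array (left to right, with the dye of the knockout RNA), with red for higher and blue for lower in the knockout and grey for no value. Genes are in order of their correlation with the median of the others, and the upper 19, with r above 0.8, are red together on replicates 7, 8 and 9.

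How well a gene was measured went with its spread. The 39 genes with a well measured probe had a median SD between arrays of 0.42, a median mean of 0.16, and 32 means above 0. The 20 genes without one had a median SD of 0.91, with 10 means above 0 and 10 below. Over all 59 genes the SD ran from 0.29 to 1.56 with a median of 0.48, against 0.81 over all genes tested, and 78.0% of them had values on all arrays, against 49.8%. Rps6 and Rps28, with SDs of 1.42 and 0.91, were the widest among the genes with a well measured probe. The values of Rps28 averaged 2 probes. The well measured one had an SD of 0.37 and the other an SD of 1.94.

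**Figure D4:**
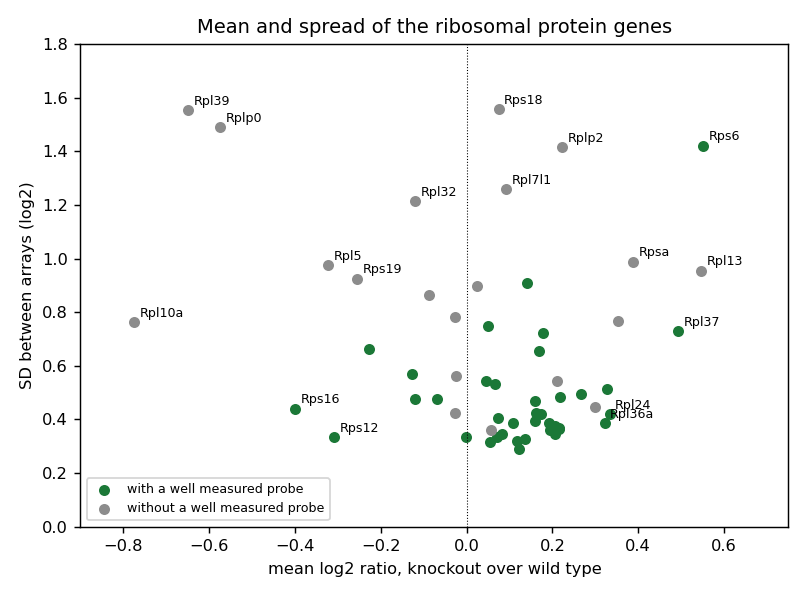
Mean log2 ratio (horizontal) and SD between arrays (vertical) of the 59 genes, green with and grey without a well measured probe. Most green points lie below an SD of 0.8, with Rps6 at 1.42 the farthest from them, and the grey points of Rps18, Rpl39 and Rplp0 are near 1.5.

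Probes of the same gene gave a further check. Of 24 genes with at least 2 probes, 23 were compared, since only 1 probe of Rplp0 had 10 values. The probe means had the same sign in 11. The 42 probe pairs had a median correlation of 0.21 across the arrays, from -0.58 to 0.93, with 31 above 0. Over the 7 pairs in which both probes were well measured the median was 0.64, from 0.09 to 0.89. Rps21 was read by 5 probes, with means from -0.05 to 0.42, and its replicate 1 value of 2.15 came from probes at 1.55, 2.12, 5.14 and -0.20. Rpl35 had well measured probes at means of 0.25 and 0.26 and another at -0.37, which left its gene mean at 0.04 ± 0.55 (SD, n = 14). Rps26 had well measured probes at 0.27 and 0.21 and another at -0.34, with a gene mean of 0.05 ± 0.75 (SD, n = 14). Rpl14, with probes at -0.43, -0.06 and 0.14, had a gene mean of -0.07 ± 0.48 (SD, n = 14). Averaging probes therefore mixed readings of different quality in these genes.

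Other genes of translation were read from lists. Of 7 elongation factor genes none was called and 5 had means above 0, with Eef1a2 at 0.44 ± 0.76 (SD, n = 14; limma unadjusted p = 0.0468). Of 33 genes listed under initiation factors none was called and 17 lay above 0. That list also held regulators of these factors, such as Eif4ebp1, Eif4ebp3 and Eif2ak2. Eif2ak2, the kinase PKR, had the smallest p with a mean of -0.48 ± 0.73 (SD, n = 14). Of 47 genes listed under assembly factors and nucleolar proteins, which included the spermidine synthase gene Srm, none was called and 33 lay above 0 (median 0.10). Rpf2, which brings the 5S particle into the ribosome, was at 0.34 ± 0.36 (SD, n = 13). Polr1a, the largest subunit of RNA polymerase I, was at 0.29 ± 0.42 (SD, n = 14). None of 13 growth-control genes was called (10 above 0). Of 16 genes with TOP messengers outside the set none was called, but 14 had means above 0 (median 0.18), among them Npm1 at 0.23 ± 0.34 and Hnrnpa1 at 0.21 ± 0.29 (SD, n = 14 each). They included Fau, given above as a ribosomal protein outside the name rule. Eef2 was also in the elongation factor list and Npm1 in the assembly list, so the lists overlapped. At an unadjusted p below 0.05 these lists held 1 of 7, 1 of 33, 2 of 47, 0 of 13 and 0 of 16 genes, against 5.35% of all genes.

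Mitochondrial ribosomal proteins served as a set of like kind. None of 61 was called, 33 had means above 0, and the median was 0.02. Their medians on replicates 7, 8 and 9 were 0.17, 0.11 and 0.12, against 0.69, 0.47 and 0.47 for the cytosolic genes, while the other TOP genes stood at 0.52, 0.27 and 0.18. When arrays were centred on well measured probes, the mitochondrial medians were -0.07, -0.04 and 0.01 on replicates 7, 8 and 9 but 0.33 and 0.35 on replicates 11 and 12. On replicates 11 and 12 the cytosolic genes at 0.39 and 0.42 were thus close to the mitochondrial list on that scale, and on replicates 7, 8 and 9 they were above it.

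**Figure D5:**
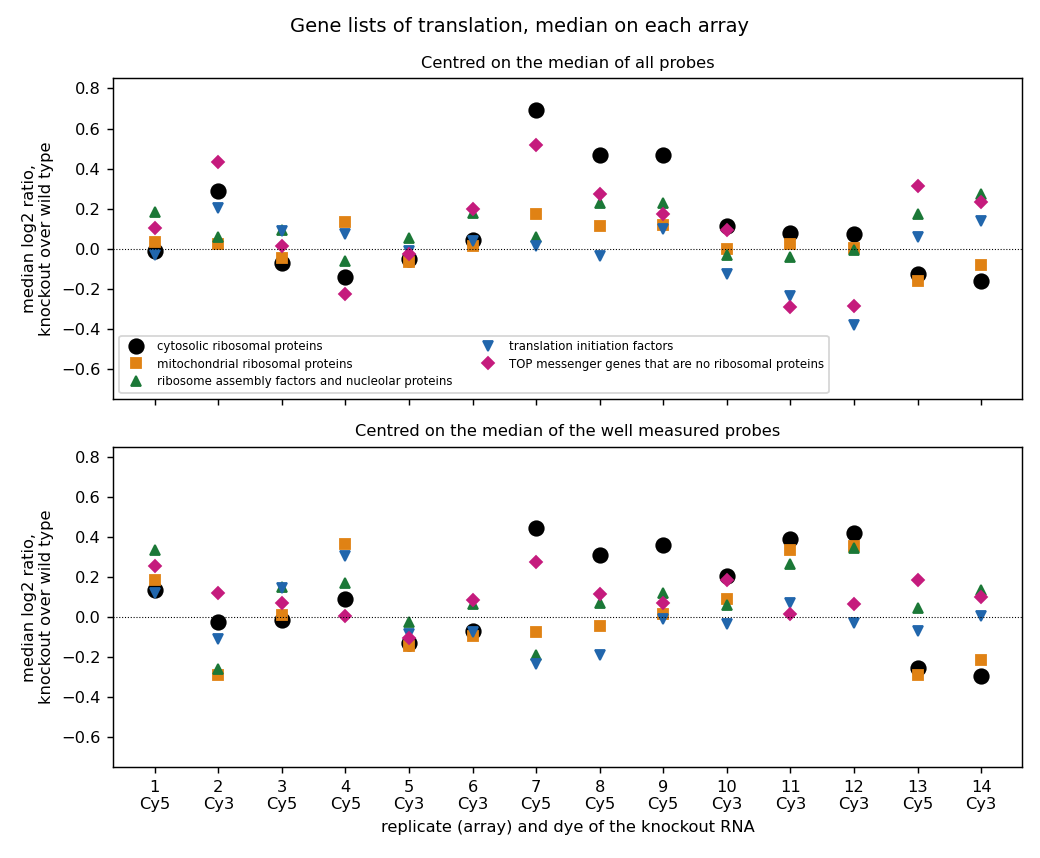
Median log2 ratio of 5 gene lists on each array, with arrays centred on all probes (upper panel) and on the well measured probes (lower panel). Cytosolic ribosomal proteins (black) stand above the other lists on replicates 7, 8 and 9 in both panels, and on replicates 11 and 12 of the lower panel the mitochondrial list at 0.33 and 0.35 lies close to them at 0.39 and 0.42.

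Marker genes of other cell types were read on the same arrays. Of 10 tested macrophage markers 3 had means above 0, and 1, the lysozyme gene Lyz2, fell (mean -1.62 ± 0.96, SD, n = 14; limma adjusted p = 0.0104). Their median was -1.42, -0.55 and -0.61 on replicates 7, 8 and 9, -0.71 on replicate 2, and -0.55 and -0.62 on replicates 13 and 14, where the ribosomal protein medians were -0.13 and -0.16. Over the 14 arrays it ran from -1.42 to 0.33. The 13 fibroblast markers had medians from -0.68 to 0.54 and were at 0.20, -0.16 and -0.04 on replicates 7, 8 and 9. Of 8 epithelial markers 4 had means above 0. The part of other cells in the ribosomal protein ratios was not tested.

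The reading of the dye-swapped arrays bears on every sign. If those arrays had still to be turned, the mean and the dye term would change places, and 16 of 35 described genes would change the sign of their mean, none of them called. Rpl10a would then stand at 0.46. The median over the 59 genes was 0.20 on the arrays with the knockout in Cy5 and 0.03 on those with the knockout in Cy3. Over the 59 genes, 28 of 49 pairs of arrays with opposite dye correlated above 0 (median 0.07), and 27 of 42 pairs with the same dye did (median 0.15). Over all probes, 19 of 49 pairs of opposite dye were above 0 (median -0.02) and 23 of 42 pairs of the same dye (median 0.00094).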

How the data were processed

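The deposited values were log2 ratios, 1 per probe and array, for 20355 probes of a two-colour cDNA platform on 14 arrays. Indirect Cy3 and Cy5 labelling of reverse-transcribed RNA is described per the labels' protocols. That text mentions organs and pooled control animals, but the second channel is labelled as fibroblasts, which was taken as its content. The scanner and any normalization by the authors were not given in the sources used here. Base 2 was read from the steps of the values.

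Values beyond 12 in either direction, 91 to 315 per array, were taken to encode a division by zero and set to missing. Each array was centred on its median, and probes were averaged per gene symbol. The platform annotation gave 1 symbol for 14030 probes, several for 5 and none for 6320. Genes with values on at least 10 arrays were fitted with limma 3.58.1 in R 4.3.3 (lmFit and eBayes), with the mean ratio and a dye term as coefficients. Means given with an SD are plain averages over the arrays with a value. The p-values belong to the fitted mean, which gives both dye orientations equal weight and differs where values were missing unequally. P-values were adjusted over all 9290 genes by the Benjamini-Hochberg method, and a call needed an adjusted p below 0.05. The fit was tested on simulated data. Wild-type RNA was not hybridised against itself, so the spread of the control was not measured. Without spot intensities, the precision of each array could be judged only from missing values, the spread of the ratios and the share of ratios of small whole numbers. That share was 24.7%, 19.1% and 31.4% on replicates 7, 8 and 9. On the other arrays it ran from 13.4% (replicate 4) to 28.7% (replicate 11).

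Genes were named when they had an unadjusted p below 0.05 for the mean or the dye term, were among the 5 highest or lowest other means, had at least 3 probes, had a stated function (hydroxylation, 5S particle, stalk, paralogue pairs, Rps6, Rps19, Rpsa), or belonged to the most or least correlated pair. In each other list, called genes or at most 2 with the smallest p were named. Members and lists were chosen with earlier results of these data known. The number ranges, the centring on well measured probes, the fits without replicates 7, 8 and 9, the promoter motifs and the 5 promoters shown were chosen after the values were seen. The mitochondrial genes were those whose symbols begin with Mrpl or Mrps. Alternatives covered centring, coded extremes, the minimum number of arrays, the handling of probes, the model, the dye orientations, number ranges as blocks, and leaving out each array.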

Additional observations from a re-analysis of the deposited data

Results flagged for a closer look

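Within each dye orientation, single arrays of 8 described genes stood far from the other arrays of that orientation. Replicate 1 of Rps6 was at 4.84, with the other arrays with the knockout in Cy5 between 0.24 and 0.90. Replicate 1 of Rpl39 was at -4.23, with the others between -1.84 and -0.23. Replicate 3 of Rpl38 was at 1.30, against -0.13 to 0.39, and replicate 4 of Rps26 at 1.85, against -0.11 to 0.39. On arrays with the knockout in Cy3, Rps26 was low on replicate 5, at -1.74, against -0.57 to 0.31. Rpl5 was low on the same array, at -2.46, against -0.54 to 0.11. Rpsa on replicate 2 stood at 3.21, against -0.27 to 1.14, and Rpl27 on that array at 0.49, against -0.08 to 0.16. Rpl13 on replicate 6 stood at 3.25, against -0.88 to 0.65.

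These were 9 such values in 72 groups of arrays. Chance gives about 1 in 20 groups, but 6 of the 9 are in genes described because their means were among the highest or lowest, which single extreme arrays produce, so the number cannot be read against chance. The values fell on replicates 1 to 6, and none on replicates 7 to 14. Both values of Rps26 are averages that include 1 probe, not well measured, at 5.215 on replicate 4 and -5.239 on replicate 5. The 2 well measured probes of Rps26 read -0.215 and 0.56 on replicate 4, and 0.076 and -0.044 on replicate 5. The cause of the 9 values was not tested.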

How the results depend on the processing

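No ribosomal protein gene was called by its mean ratio in any of 19 alternatives or 14 fits without 1 array, and none by the dye term where that term was fitted. The smallest adjusted p over the 19 alternatives ran from 0.147 (number ranges as fixed block) to 1.0, and over the 14 fits from 0.309 to 0.827 (limma). The median over the genes ran from 0.09 to 0.15 when each array was left out in turn, and from -0.00 (without replicates 7, 8 and 9) to 0.21 (quantile normalization) otherwise. The number of genes at an unadjusted p below 0.05, 8 as reported, or 13.6% (all genes 5.35%), was 11 with quantile normalization (all genes 6.43%) and 10 with equal median absolute deviations (6.07%). It was 2 with Cy3 arrays turned (7.42%), 3 on arrays with the knockout in Cy5 alone (5.98%), 2 on those with it in Cy3 alone (6.86%), 4 with number range and dye as random block (2.93%), 3 with number ranges as fixed block (6.82%) and 2 without replicates 7, 8 and 9 (6.81%). The cause was not tested. It ran from 3 to 9 when each array was left out, with 3 without replicate 7 and 4 without replicate 8. Of 35 described genes, 0 to 11 changed the sign of their mean over 31 settings and 16 with Cy3 arrays turned, none of them called. Turned, Rpl10a, Rps12 and Rps16 stood at 0.46, 0.15 and 0.08. Every array holds both RNAs, so each ratio already pairs knockout with wild type. There is 1 group of arrays, and no further pairing between arrays was made. The centring on well measured probes and the fits without replicates 7, 8 and 9 were chosen after seeing the data.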
